A study of Mus musculus with 31 samples.

Results

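A set of 9 genes that mark classical monocytes was followed through sorted myeloid cells of the mouse heart: Ly6c1, Ly6c2, F13a1, Plac8, Lyz1, Lyz2, S100a8, S100a9 and Cd14. They were taken by symbol from the gene counts of all 31 libraries and are 9 of 24421 gene symbols counted. All 9 passed the filter on low counts, which left 13039 genes for testing.

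The study compared cells from hearts of Balb/c mice, a common inbred strain, aged between 8 and 12 weeks, either uninjured, called steady state (SS), or following an infarction (MI). MI was made by permanent ligation of the coronary artery that feeds the left ventricle's front wall (the left anterior descending artery). After enzymatic digestion of the tissue, 4 populations were taken by FACS, a sort of single cells by fluorescent antibodies: CD11c-negative monocyte-derived cells, labelled macrophages; CD11c-positive monocyte-derived cells, labelled moDCs; and 2 kinds of conventional dendritic cell, cDC1 and cDC2. Every group had 4 libraries except MI cDC2, which had 3. No animal carried an engineered allele per the labels. The sorting antibodies, the time after ligation, the sex of the mice and whether a replicate was 1 heart or a pool are not stated in the labels, so p-values measure only the spread between these samples. Any difference in handling between SS and MI hearts cannot be told apart from MI itself.

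Classical monocytes leave the bone marrow through the chemokine receptor CCR2, circulate with high surface Ly6C, and enter injured muscle, where many turn into macrophages or monocyte-derived dendritic cells and lose Ly6C as they do. Nonclassical monocytes, which patrol vessel walls, have little Ly6C. Most of the genes named here are not private to monocytes: lysozyme and CD14 stay high in macrophages, coagulation factor XIII A marks several resident macrophages, Ly6c1 is made by endothelial and T cells, Plac8 by several lymphoid and dendritic cells, and S100A8 and S100A9 are most abundant in neutrophils.

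Both Ly6c genes and both lysozyme genes are neighbouring copies, so the values below depend on how well 75-base reads tell the copies apart. In GENCODE M21 on GRCm38 (mm10), Ly6c1 lies on chromosome 15 at 75044018 to 75048830 and Ly6c2 at 75108158 to 75111970, and Lyz2 lies on chromosome 10 at 117277331 to 117282321 and Lyz1 at 117287797 to 117292868, all on the minus strand. Of the 770 windows of 75 bases in the first Ly6c1 transcript, 21.3% occur identically in Ly6c2 and 85.71% match it with at most 2 mismatches. For Lyz1, 6.224% of 1189 windows occur identically in Lyz2 and 44.66% match within 2 mismatches. The labels do not state how reads that fit both copies were counted, so a single copy's count is uncertain and each result was also computed with the copies summed. Coding windows of 1 read length show what separates the copies, with the differing bases in capitals. The lysozyme windows lie in coding exon 2 (96% identical), and the Ly6c windows in exon 4 (98.67% identical), each read 5′ to 3′ on the gene's strand at chr10:117291119-117291193, chr10:117280731-117280805, chr15:75045536-75045610 and chr15:75108677-75108751 of GRCm38.
Lyz1: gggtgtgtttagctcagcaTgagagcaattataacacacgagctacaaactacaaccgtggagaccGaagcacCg
Lyz2: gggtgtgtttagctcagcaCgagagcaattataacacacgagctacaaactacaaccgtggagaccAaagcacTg
Ly6c1: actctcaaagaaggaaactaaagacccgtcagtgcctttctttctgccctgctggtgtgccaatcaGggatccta
Ly6c2: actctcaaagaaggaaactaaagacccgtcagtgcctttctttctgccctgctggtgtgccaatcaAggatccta

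Libraries held 9148624 to 16531349 reads in genes, and 3 reads, the floor used here, correspond to 0.18 to 0.328 CPM, the usual read count scaled to library size, here with edgeR's TMM factors. The sorts carried the markers of their labels: summed resident macrophage genes were highest in CD11c-negative cells (14218 to 24331 CPM over both states, touched by SS CD11c-positive cells at 6313 to 14341 CPM), cDC1 genes in cDC1 (12419 to 15681 CPM) and cDC2 genes in cDC2 (4494 to 6782 CPM). Reads in no annotated feature made up 11.6% to 16.9% in SS replicates 1 and 4, against 6.42% to 9.26% in SS replicates 2 and 3 and 6.85% to 10.9% in MI, so SS results were also computed within each of these 2 sets. Several SS libraries stand apart in the genes followed here: SS cDC2 replicates 1 and 2 are high in Ly6c1, Ly6c2, Plac8, S100a8 and S100a9, SS CD11c-positive replicates 3 and 4 are high in S100a8, S100a9 and Plac8, and SS CD11c-negative replicate 4 is high in S100a8 and S100a9. For the 9 members, results that rest on them are given with and without them. Calls of genes other than the members are given with all libraries only. In bulk samples, fewer cells of a type and less RNA per cell cannot be told apart.

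Between MI and SS, with all libraries, most members were called lower in cDC2, fewer in cDC1 and CD11c-positive cells, and none in CD11c-negative cells. Such counts do not test a difference between sorts, and the MI effects in cDC2 and cDC1 were not compared by a test. Changed means an adjusted p under 0.05 in edgeR's quasi-likelihood test over all 13039 genes. Because the members and gene lists were chosen with earlier results of these data known, their counts beside the share of all genes are a description. They are no test of a set. In cDC2, 8 of 9 members fell and Plac8 did not pass, while 6.63% of all genes tested were called lower. In CD11c-positive cells 3 of 9 fell (F13a1, Lyz1 and S100a9; 3.32% of all genes were called lower). In cDC1, 5 of 9 fell (Ly6c1, F13a1, Lyz1, Lyz2 and Cd14; 6.73% of all genes were called lower) and Plac8 rose (2.16% were called higher). In CD11c-negative cells edgeR called 0 of 9, where 7.39% of all genes were called in either direction; 3 members had an unadjusted p under 0.05 (F13a1, Plac8 and S100a9), and DESeq2 called 1, F13a1. The members' median log2 difference was -3.97 in cDC2, -1.83 in CD11c-positive cells, -1.78 in cDC1 and -0.22 in CD11c-negative cells, beside -0.03 over all genes in each of the 4 sorts.

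The count in cDC2 is smaller without the 2 SS libraries that stand apart: leaving out SS cDC2 replicates 1 and 2 together, a choice made after seeing the data, left 4 of 9 called. With only SS replicates 1 and 4, which have the higher share of reads in no feature, 5 of 9 were called in cDC2, and 8 of 9 with only SS replicates 2 and 3. In CD11c-positive cells those settings called 2 and 5 of 9, in cDC1 4 and 5, and in CD11c-negative cells 0 and 0. Leaving out 1 library at a time gave 4 to 9 calls in cDC2, 3 to 5 in CD11c-positive cells, 3 to 6 in cDC1 and 0 to 1 in CD11c-negative cells. In CD11c-positive cells 2 of 9 were called without SS CD11c-positive replicates 3 and 4, and DESeq2 called 7 of 9.

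**Figure D1:**
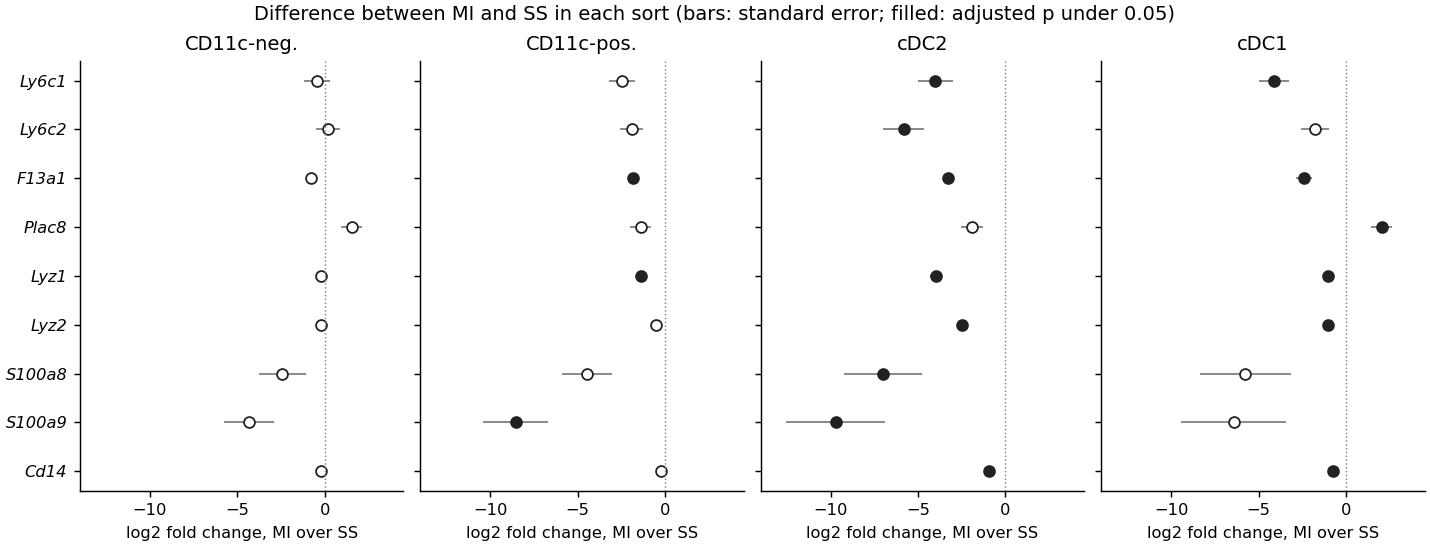
Log2 fold change of MI over SS (horizontal axis) for each of the 9 genes in the 4 sorts, with standard errors as bars; filled points passed an adjusted p of 0.05. In cDC2 all 9 points lie left of 0 and 8 are filled. In CD11c-negative cells none is filled, and Plac8 and Ly6c2 (log2 0.19) lie right of 0. Plac8 also lies right of 0 in cDC1.

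**Figure D2:**
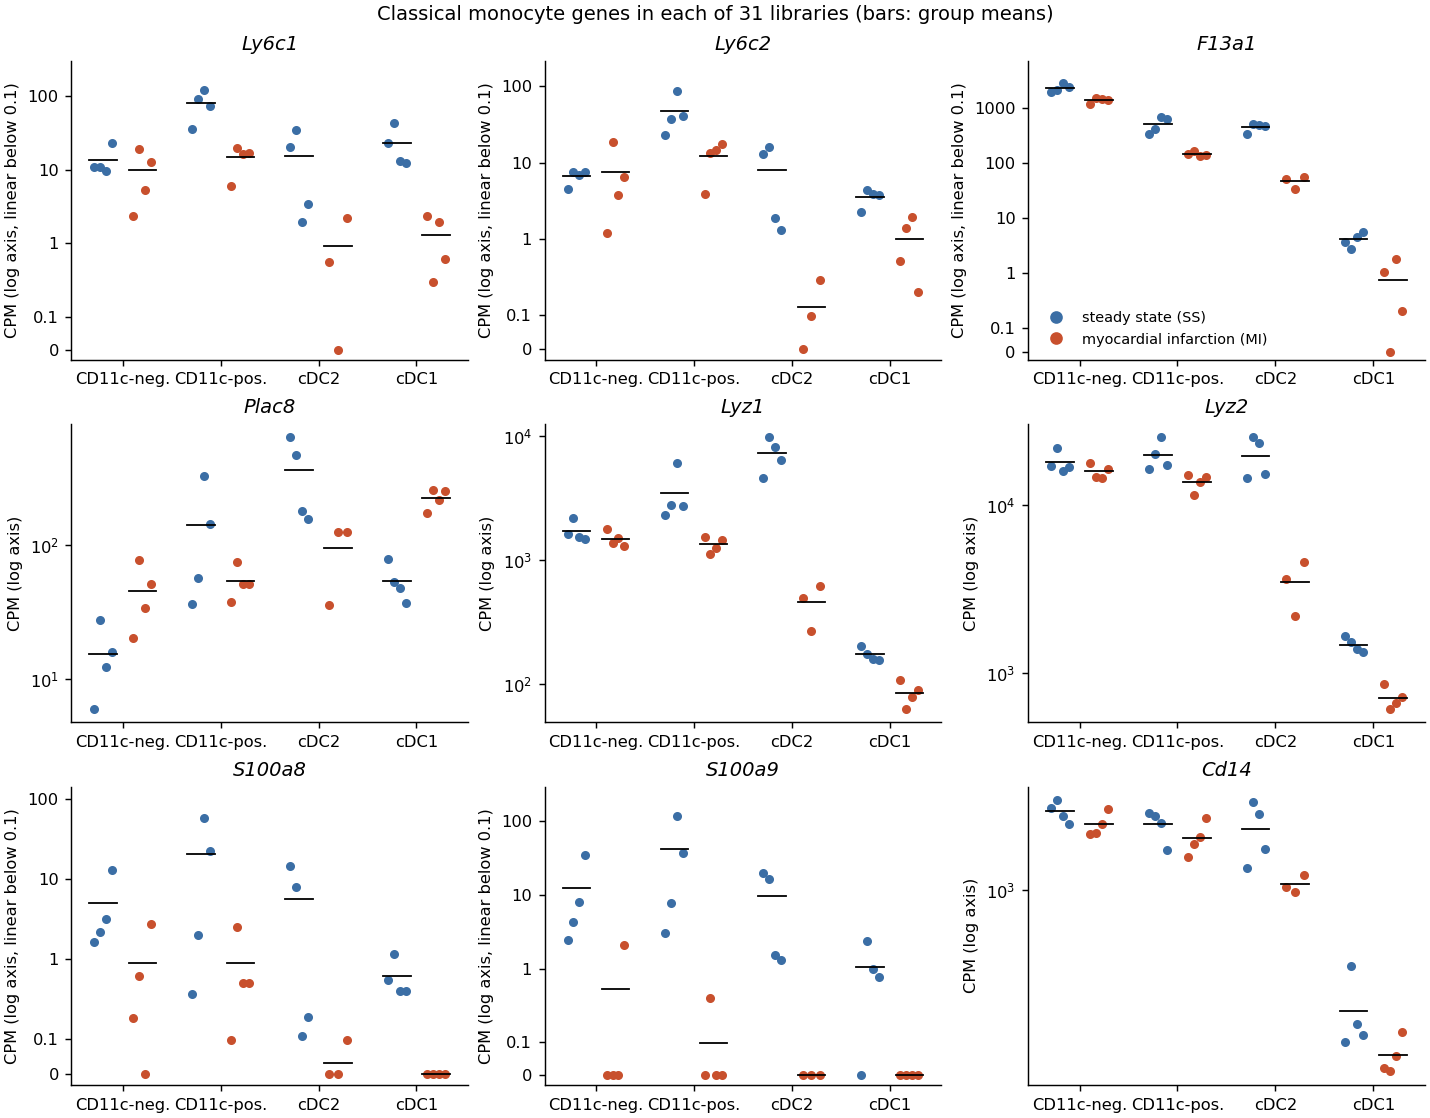
CPM of each of the 9 genes in each of the 31 libraries by sort, SS in blue and MI in orange, on log axes (linear below 0.1 where a gene has low values); bars are group means. Lyz1 and F13a1 separate SS from MI in CD11c-positive cells and cDC2, while in SS cDC2 the 4 libraries split into a high and a low pair for Ly6c1, Ly6c2, S100a8 and S100a9.

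Ly6c1 and Ly6c2 encode the small lipid-anchored proteins that together carry the Ly6C epitope used to sort classical monocytes. Both were highest in SS CD11c-positive cells. Ly6c1 there read 35.6, 92.7, 120 and 72.6 CPM in replicates 1 to 4, and Ly6c2 23.0, 37.8, 85.6 and 40.9 CPM. In MI CD11c-positive cells Ly6c1 read 6.02, 19.7, 16.6 and 16.8 CPM and Ly6c2 3.89, 13.5, 14.9 and 17.3 CPM, so that neither gene's groups overlapped, yet the differences did not pass the adjusted test (Ly6c1 log2 -2.44 ± 0.74 SE, adjusted p = 0.0571; Ly6c2 -1.92 ± 0.68, adjusted p = 0.11). DESeq2 called both (adjusted p = 0.0376 and 0.0478). In CD11c-negative cells the values overlapped, with Ly6c1 at 11.1, 10.8, 9.73 and 22.8 CPM in SS and 2.39, 19.4, 5.26 and 12.8 CPM in MI.

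In cDC2, Ly6c1 read 20.6, 34.8, 1.97 and 3.46 CPM in SS and 0.565, 0 and 2.22 CPM in MI, and Ly6c2 read 13, 15.9, 1.86 and 1.31 CPM in SS and 0, 0.0992 and 0.289 CPM in MI. SS replicates 1 and 2 were thus about an order of magnitude above replicates 3 and 4; the lowest SS Ly6c1 value lay within the MI values, and the Ly6c2 groups did not overlap. Ly6c1 fell 16.1-fold (log2 -4.01 ± 1.02, adjusted p = 0.00979) and Ly6c2 57.0-fold (log2 -5.83 ± 1.17, adjusted p = 0.00112), with 4 Ly6c2 reads in all MI cDC2 libraries together. Without SS replicates 1 and 2 neither passed (Ly6c1 2.94-fold, adjusted p = 0.473; Ly6c2 11.4-fold, adjusted p = 0.0833). The Ly6c1 call also ended without MI replicate 1 (adjusted p = 0.0663) or 2 (0.0643), its fold was 9.25 without SS replicate 2 and 50.7 without MI replicate 3, the Ly6c2 fold was 133 without MI replicate 3, and the summed pair fell 21.7-fold (adjusted p = 0.00432). SS replicates 1 and 2 were also the highest for the 16 summed endothelial genes (109 and 147 CPM against 59.0 and 52.5 CPM; MI 50.1 to 60.7 CPM), whose part in the Ly6c values was not tested.

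In cDC1, Ly6c1 read 23.4, 43.0, 13 and 12.2 CPM in SS and 2.37, 0.296, 1.95 and 0.615 CPM in MI, without overlap, and fell 17.4-fold (log2 -4.12 ± 0.88, adjusted p = 0.00287). Ly6c2 was lower, at 2.28, 4.36, 3.87 and 3.8 CPM in SS and 0.514, 1.38, 1.95 and 0.205 CPM in MI, and did not pass (log2 -1.78 ± 0.79, adjusted p = 0.187), while the summed pair fell 11.3-fold (adjusted p = 0.00673). Ly6c1 made up 83.8% ± 8.27 (SD, n = 4) of the pair's reads in SS cDC1, against 65.8% ± 8.62 in SS CD11c-negative, 63.5% ± 5.51 in SS CD11c-positive cells and 63.5% ± 9.29 in SS cDC2. Endothelial genes moved the same way in cDC1: their sum was 140, 308, 106 and 88.6 CPM in the SS libraries and 49.3, 45.2, 50.6 and 35.1 CPM in MI, with 7 of the 16 at 0 in all MI libraries (Tek, Tie1, Emcn, Cldn5, Robo4, Gpihbp1 and Sox17). Their part in the cDC1 change was not tested.

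Across sorts in SS, Ly6c1 was 5.89-fold and Ly6c2 7.02-fold higher in CD11c-positive than in CD11c-negative cells (adjusted p = 0.0227 and 0.00738), and 5.27-fold and 5.85-fold lower in cDC2 than in CD11c-positive cells (adjusted p = 0.0285 and 0.013). These sort differences were less firm than their size: without SS CD11c-positive replicates 3 and 4 the first 2 had adjusted p = 0.148 and 0.114 (Ly6c2 4.56-fold) and the others 0.11 and 0.105 (Ly6c2 3.8-fold). Without SS cDC2 replicates 1 and 2, in contrast, cDC2 lay 29.0-fold and 29.3-fold below CD11c-positive cells. Without any one of SS CD11c-negative replicates 1, 2 and 3 or SS CD11c-positive replicate 3, the Ly6c1 difference between the monocyte-derived sorts had adjusted p of 0.058 to 0.0728. The Ly6c1 difference of cDC2 from CD11c-positive cells likewise ended without SS CD11c-positive replicate 2 or 3 or SS cDC2 replicate 3 or 4 (adjusted p = 0.058 to 0.0806), and was 9.20-fold without SS cDC2 replicate 2. Within either set of SS replicates split by the share of reads in no feature, none of these 4 differences passed. In MI the monocyte-derived sorts did not differ by the test (Ly6c1 adjusted p = 0.719, Ly6c2 0.593), and cDC2 was lower than CD11c-positive cells 15.7-fold for Ly6c1 (adjusted p = 0.0105) and 88.2-fold for Ly6c2 (adjusted p = 3.05e-04). Those MI differences move with single libraries: without MI cDC2 replicate 3 they were 49.3-fold and 206-fold, without MI cDC2 replicate 1 or 2 the Ly6c1 call ended (adjusted p = 0.0605 and 0.075), and the summed pair differed 25.3-fold.

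Ordered by mean CPM, Ly6c1 ran from SS CD11c-positive cells (80.1 ± 35.4 CPM, SD, n = 4) over SS cDC1 (22.9 ± 14.4), SS cDC2 (15.2 ± 15.6), MI CD11c-positive (14.8 ± 6.01), SS CD11c-negative (13.6 ± 6.18) and MI CD11c-negative cells (9.96 ± 7.66) to MI cDC1 (1.31 ± 1.01) and MI cDC2 (0.927 ± 1.15, n = 3). Neighbours in that order overlapped in their libraries except at the step from MI CD11c-negative cells to MI cDC1. Ly6c2 kept SS CD11c-positive cells at the top (46.8 ± 27.0 CPM) and MI cDC2 at the bottom (0.129 ± 0.147 CPM). Over the 31 libraries, which share groups and depth, the log2 CPM of Ly6c1 was most like that of Ly6c2 (Pearson r = 0.895), Ly6e, a Ly6 gene of the same cluster (0.853), and Fabp4, a lipid carrier of capillary endothelium and macrophages (0.851). For Ly6c2 the most like were Ly6c1, the hexokinase Hk3 (0.809) and the adiponectin receptor Adipor1 (0.803).

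Of the other genes in the Ly6 cluster, 5 of the 11 found beside the members could be tested. Ly6e fell in cDC2 (7.97-fold, adjusted p = 1.05e-05; 730 ± 475 to 91.6 ± 31.9 CPM) and in cDC1 (6.22-fold, adjusted p = 1.34e-05), and the difference between its MI effects in cDC2 and in CD11c-negative cells passed (log2 -3.59 ± 0.52, adjusted p = 7.26e-05). Gpihbp1, a capillary endothelial gene that anchors lipoprotein lipase, fell in CD11c-negative cells (6.68-fold, adjusted p = 0.0498), cDC2 (15.7-fold, adjusted p = 0.0132) and cDC1, where it was listed at 0 in all MI libraries. Ly6a, the stem cell antigen Sca-1, was 10.0-fold higher in CD11c-positive than CD11c-negative cells in SS (adjusted p = 1.52e-04) and fell in cDC1 after MI (3.26-fold, adjusted p = 0.0381).

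F13a1 encodes the A subunit of coagulation factor XIII, the enzyme that cross-links fibrin. It lies on chromosome 13 at 36867178 to 37050244, minus strand, with 15 exons. It was highest in CD11c-negative cells, at 1969, 2109, 2889 and 2477 CPM in SS and 1181, 1516, 1443 and 1417 CPM in MI. In CD11c-positive cells it read 342, 413, 687 and 636 CPM in SS and 144, 166, 134 and 141 CPM in MI, and in cDC2 336, 522, 492 and 478 CPM in SS and 52.3, 33.9 and 55.3 CPM in MI. SS and MI did not overlap in any of these 3 sorts.

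F13a1 fell 9.68-fold in cDC2 (log2 -3.27 ± 0.31, adjusted p = 3.83e-08) and 3.55-fold in CD11c-positive cells (log2 -1.83 ± 0.26, adjusted p = 4.04e-05), and neither call ended in any setting tried. In CD11c-negative cells the difference was 1.70-fold (log2 -0.76 ± 0.25) and did not pass (adjusted p = 0.0633), but passed in DESeq2 (0.00426), in a fit of those 2 groups only (0.00319) and with upper-quartile scaling (0.0336). In cDC1 the gene was near the floor, at 3.73, 2.75, 4.56 and 5.46 CPM in SS and 1.03, 0, 1.76 and 0.205 CPM in MI; it fell 5.30-fold (adjusted p = 6.07e-04), 9.80-fold without MI replicate 3, and did not pass in a fit of the cDC1 libraries alone (adjusted p = 0.109). The MI effect in cDC2 was larger than in CD11c-negative cells (difference of log2 effects -2.51 ± 0.38, adjusted p = 1.11e-04). Against CD11c-positive cells the difference of effects was -1.45 ± 0.38 and did not pass (adjusted p = 0.0656); it passed in DESeq2 (6.98e-04), in a fit of the compared groups only (0.0356), without SS CD11c-positive replicate 3 (0.0221) or SS cDC2 replicate 1 (0.0379), and without SS CD11c-positive replicates 3 and 4 together (0.00628).

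The order of sorts for F13a1 was the same in both states, from CD11c-negative over CD11c-positive cells and cDC2 to cDC1. CD11c-positive cells were 4.54-fold below CD11c-negative cells in SS (adjusted p = 8.01e-07) and 9.49-fold in MI (adjusted p = 2.68e-09). SS cDC2 and SS CD11c-positive cells overlapped (457 ± 82.8 against 520 ± 168 CPM, adjusted p = 0.692), while in MI cDC2 was 3.10-fold lower (47.2 ± 11.6 against 146 ± 13.7 CPM, adjusted p = 2.41e-04). Over the 31 libraries its log2 CPM was most like that of Rin2, a regulator of endosome traffic (Pearson r = 0.970), Colec12, a scavenger receptor (0.969), and Ptgs1, the constitutive cyclooxygenase (0.968). Of 5 other genes tested from its list of factor XIII partners and transglutaminases, Fn1, whose product fibronectin is cross-linked by factor XIII, rose in CD11c-negative cells (14.4-fold, adjusted p = 0.0013; 64.6 ± 74.9 to 931 ± 291 CPM), as did the transglutaminase Tgm2 (2.31-fold, adjusted p = 0.0145). Thbs1, the matrix protein thrombospondin 1, fell in cDC2 (8.58-fold, adjusted p = 5.82e-04).

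Plac8, a small cysteine-rich protein found in monocytes, dendritic cells and lymphocytes, was the only member called higher in MI, which was in cDC1. In cDC2 and CD11c-positive cells its fitted change was downward, as for the other members. The gene lies on chromosome 5 at 100553725 to 100572245, minus strand. In cDC1 it read 78.6, 52.2, 47.3 and 36.8 CPM in SS and 171, 253, 215 and 252 CPM in MI, with every MI library above every SS library, and rose 4.13-fold (log2 2.05 ± 0.59, adjusted p = 0.0268). That call ended without any one of SS cDC1 replicates 2, 3 and 4 or MI cDC1 replicates 2 and 4 (adjusted p = 0.06 to 0.0762), and within either set of SS replicates (0.13 and 0.0853). In CD11c-negative cells it read 6.01, 27.3, 12.2 and 15.9 CPM in SS and 20.3, 76.3, 33.8 and 50.5 CPM in MI; the groups overlapped and the difference did not pass (log2 1.56 ± 0.60, adjusted p = 0.129).

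In cDC2, Plac8 read 629, 462, 179 and 156 CPM in SS and 35.8, 123 and 124 CPM in MI. All SS libraries lay above all MI libraries, but the edgeR test did not pass (log2 -1.92 ± 0.65, adjusted p = 0.0556); DESeq2 (adjusted p = 0.014) and upper-quartile scaling (0.0476) called it. In CD11c-positive cells the values were 36.2, 56.5, 326 and 143 CPM in SS and 37.3, 73.6, 51.0 and 50.8 CPM in MI, where only SS replicates 3 and 4 exceed the MI range (log2 -1.40 ± 0.58, adjusted p = 0.181). The MI effects in cDC2 and in CD11c-negative cells differed (log2 -3.48 ± 0.88, adjusted p = 0.0202); the call ended without SS cDC2 replicates 1 and 2 (5.26-fold, adjusted p = 0.201), without MI cDC2 replicate 1 (0.0738) and with only SS replicates 2 and 3 (0.118).

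Within SS, mean Plac8 differed between the sorts: 15.4 ± 8.93 CPM in CD11c-negative cells, 141 ± 132 CPM in CD11c-positive cells and 357 ± 229 CPM in cDC2. CD11c-positive cells were 9.14-fold above CD11c-negative cells (adjusted p = 8.11e-04), 5.10-fold without SS CD11c-positive replicate 3, and 3.03-fold without replicates 3 and 4, which ended the call (adjusted p = 0.113). cDC2 was 23.2-fold above CD11c-negative cells (adjusted p = 5.2e-06) and still 10.9-fold above without SS cDC2 replicates 1 and 2 (adjusted p = 3.34e-04). In MI neither difference passed (adjusted p = 0.868 and 0.22). Over the 31 libraries its log2 CPM was most like that of Ndufaf5, a mitochondrial complex I assembly factor (Pearson r = 0.852), Samhd1, a dNTP hydrolase (0.848), and Cdk2ap2 (0.844).

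Lyz1 and Lyz2 encode lysozyme, the enzyme that cleaves bacterial cell walls; Lyz2 is the copy of macrophages and Lyz1 that of intestinal Paneth cells, with some in myeloid cells. Lyz2 was the most abundant member per kilobase of exon in every SS sort (13588 CPM per kilobase in CD11c-negative cells, 14859 in cDC2 and 1120 in cDC1, where Lyz1 stood at 1347, 5744 and 137). It read 14339, 25126, 23415 and 15338 CPM in SS cDC2 and 3634, 2169 and 4582 CPM in MI cDC2. Lyz1 read 4628, 9788, 8166 and 6435 CPM in SS cDC2 and 494, 269 and 622 CPM in MI cDC2. For both copies every SS library lay above every MI library.

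In cDC2, Lyz1 fell 15.7-fold (log2 -3.97 ± 0.33, adjusted p = 4.21e-09) and Lyz2 5.65-fold (log2 -2.50 ± 0.22, adjusted p = 2.68e-09), and the summed pair 6.83-fold (adjusted p = 1.15e-09). Neither call ended in any setting tried, including without SS cDC2 replicates 1 and 2. In CD11c-positive cells Lyz1 read 2309, 2801, 6078 and 2756 CPM in SS and 1537, 1125, 1261 and 1452 CPM in MI and fell 2.59-fold (log2 -1.38 ± 0.26, adjusted p = 0.00163). Lyz2 there read 16396, 20172, 25158 and 17143 CPM in SS and 14987, 11386, 13745 and 14710 CPM in MI, also without overlap, and did not pass (log2 -0.52 ± 0.18, adjusted p = 0.0984). The summed pair did not pass in that sort either (1.54-fold, adjusted p = 0.0535), so the call there belongs to the copy's own count, with its uncertainty.

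In CD11c-negative cells both copies overlapped between states: Lyz1 read 1615, 2173, 1529 and 1486 CPM in SS and 1782, 1361, 1497 and 1309 CPM in MI (adjusted p = 0.758), and Lyz2 17882 ± 2721 CPM in SS and 15787 ± 1522 CPM in MI (adjusted p = 0.66). In cDC1, where levels were an order of magnitude lower, Lyz1 fell 2.05-fold (173 ± 20.9 to 84.5 ± 18.5 CPM, adjusted p = 0.0121; 0.0551 without MI replicate 2) and Lyz2 2.07-fold (1473 ± 145 to 713 ± 104 CPM, adjusted p = 2.52e-04). The MI effect in cDC2 was stronger than in CD11c-positive cells for Lyz1 (difference of log2 effects -2.60 ± 0.39, adjusted p = 4.73e-04) and Lyz2 (-1.97 ± 0.27, adjusted p = 1.16e-04). It was also stronger than in CD11c-negative cells (Lyz1 -3.78 ± 0.40, adjusted p = 6.49e-07; Lyz2 -2.32 ± 0.28, adjusted p = 1.49e-06).

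The 2 copies did not fall alike, and their balance differed by sort. Lyz1 made up 24.4%, 28.0%, 25.9% and 29.6% of the pair's reads in the SS cDC2 libraries and 12.0%, 11% and 12.0% in MI cDC2. In CD11c-positive cells the share was 12.3%, 12.2%, 19.5% and 13.8% in SS and 9.30%, 8.99%, 8.40% and 8.98% in MI. In CD11c-negative cells it lay between 7.39% and 9.39% in all 8 libraries, and in cDC1 between 9.32% and 11.1%. SS and MI shares thus did not overlap in cDC2 or CD11c-positive cells and overlapped in the other 2 sorts.

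Averaged over libraries, the log2 ratio of Lyz1 to Lyz2 reads differed by -1.48 in MI from SS in cDC2 and by -0.76 in CD11c-positive cells, beside -0.01 in CD11c-negative cells and 0.00 in cDC1. In SS it was 1.15 higher in cDC2 than in CD11c-positive cells and 0.81 higher there than in CD11c-negative cells; in MI these differences were 0.43 and 0.06. These ratios were chosen after the shares were seen, so they are given as a description without p-values. How reads shared by the copies were assigned would enter every one of these shares; its part in the differences was not tested.

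**Figure D3:**
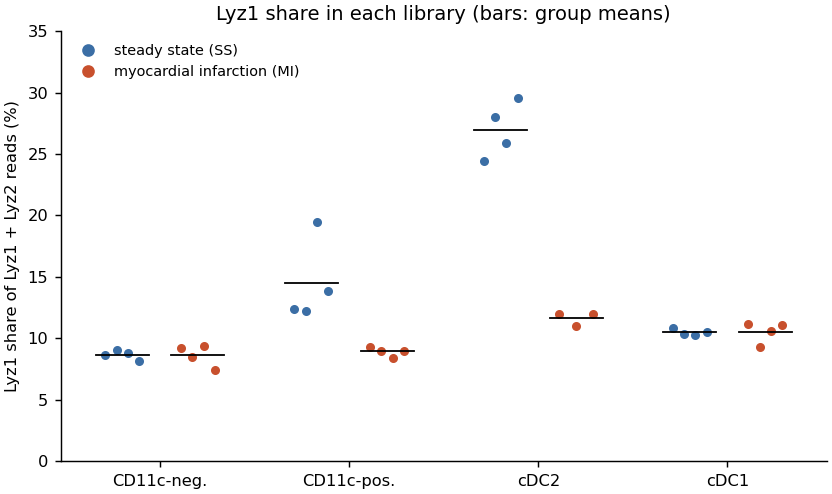
Share of Lyz1 in the summed Lyz1 and Lyz2 reads (%, vertical axis from 0) in each of the 31 libraries by sort, SS in blue and MI in orange, with group means as bars. SS cDC2 libraries lie between 24.4% and 29.6%, SS CD11c-positive libraries between 12.2% and 19.5%, and all others between 7.39% and 12.0%.

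The promoters of the copies were compared because Lyz1 and Lyz2 shared a direction but not a size of change. RefSeq promoter entries (GRCm38.p6, 250 bases before to 50 after the start) matched 8 of the 9 members. Over 248 aligned bases Lyz1 and Lyz2 were 80.65% identical, and Ly6c1 and Ly6c2 75.93% identical over 216. The motif AGGAAGT, a core bound by the myeloid factor PU.1, was searched on both strands in the 250 bases before each start and occurs in 7.686% of 32851 promoters. It was found at -100 to -94 in Lyz1 and in Lyz2 (minus strand relative to the gene, where it reads ACTTCCT), at -107 to -101 in Ly6c2 and at -172 to -166 in S100a8, and in none of the other 4 windows. The other 2 motifs searched were TTGCNNAA, a form bound by C/EBP factors (9.564% of promoters), and TATAAA, the TATA box (12.37%). TTGCNNAA was found at -209 to -202 in Lyz1 (minus strand) and at -236 to -229 in S100a9 and not in Lyz2, so that of the 3 motifs it is the one whose presence differed between the lysozyme copies. TATAAA was found at -143 to -138 in Ly6c1 and at -30 to -25 in S100a8. A match is a description of letters and not of binding. The 200 bases that start 250 bases before the start of both lysozyme and both Ly6c promoters are shown, with AGGAAGT in capitals, read on the gene's strand (minus) at chr10:117292919-117293118, chr10:117282323-117282522, chr15:75048888-75049087 and chr15:75112022-75112221.
Lyz1: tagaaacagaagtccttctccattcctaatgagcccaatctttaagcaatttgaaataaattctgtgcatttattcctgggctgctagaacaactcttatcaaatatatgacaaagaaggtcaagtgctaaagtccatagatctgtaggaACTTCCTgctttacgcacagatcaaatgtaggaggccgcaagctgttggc
Lyz2: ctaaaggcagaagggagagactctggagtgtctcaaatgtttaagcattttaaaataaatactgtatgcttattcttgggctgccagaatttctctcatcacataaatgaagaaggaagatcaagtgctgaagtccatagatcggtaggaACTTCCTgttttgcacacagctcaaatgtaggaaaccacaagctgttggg
Ly6c1: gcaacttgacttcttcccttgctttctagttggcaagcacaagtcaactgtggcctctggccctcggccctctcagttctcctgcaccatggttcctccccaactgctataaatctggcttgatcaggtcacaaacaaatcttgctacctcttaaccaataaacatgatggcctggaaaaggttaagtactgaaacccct
Ly6c2: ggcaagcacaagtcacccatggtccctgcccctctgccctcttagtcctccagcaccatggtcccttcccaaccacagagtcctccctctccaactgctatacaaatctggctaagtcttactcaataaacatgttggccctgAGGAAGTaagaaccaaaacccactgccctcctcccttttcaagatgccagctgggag

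Lyz1 was also the lysozyme copy that separated the SS sorts. It was 2.05-fold higher in CD11c-positive than CD11c-negative cells (adjusted p = 0.00732) and 2.08-fold higher again in cDC2 (adjusted p = 0.0058), whereas Lyz2 did not differ by the test (adjusted p = 0.702 and 0.981). With the copies summed neither difference passed (adjusted p = 0.475 and 0.52), nor did the 4.27-fold difference of cDC2 from CD11c-negative cells (1.37-fold summed, adjusted p = 0.0647). The first call also ended without SS CD11c-positive replicate 3, which held the highest Lyz1 (adjusted p = 0.0831), and the second in a fit of those 2 groups only (0.0615). In MI cDC2 lay below CD11c-positive cells for both copies (Lyz1 2.91-fold, adjusted p = 5.46e-04; Lyz2 3.96-fold, adjusted p = 6.37e-08). Over the 31 libraries Lyz1 was most like Ccl6, a macrophage chemokine (Pearson r of log2 CPM 0.969), Lyz2 (0.953) and Klra2, an inhibitory lectin receptor (0.946), and Lyz2 was most like Sqrdl, a mitochondrial sulfide oxidase (0.986), the phagosomal metal transporter Slc11a1 (0.974) and Rab20 (0.966).

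S100a8 and S100a9 encode calprotectin, the calcium-binding pair that neutrophils and classical monocytes carry in their cytosol. They lie on chromosome 3 at 90668978 to 90670035 (plus strand) and 90692632 to 90695721 (minus strand). S100a9 read 3.06, 7.70, 118 and 36.6 CPM in SS CD11c-positive cells and 0, 0.396, 0 and 0 CPM in MI, where 4 reads, all in replicate 2, were counted. S100a8 there read 0.361, 1.99, 56.8 and 22.0 CPM in SS and 0.0971, 2.48, 0.499 and 0.500 CPM in MI. SS replicates 3 and 4 hold most of both, the S100a9 groups did not overlap, and the S100a8 groups did.

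In CD11c-positive cells S100a9 fell 373-fold in the fit (log2 -8.54 ± 1.87, adjusted p = 0.00855); the ratio of summed counts per read was 365, with a 95% interval of 142 to 1341 for counting error only. Without SS replicate 3 the fitted fold was 142 (adjusted p = 0.0182), and without SS replicates 3 and 4 it was 48.9 and did not pass (adjusted p = 0.0675). Without MI replicate 2 the MI libraries hold 0 reads, and S100a9 is at least 365-fold lower against a floor of 3 reads over the group. With only SS replicates 1 and 4 the call ended (adjusted p = 0.0826), and with only 2 and 3 the fold was 565. S100a8 did not pass (log2 -4.49 ± 1.43, adjusted p = 0.0723), although DESeq2 called it (0.0238).

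In cDC2, S100a9 read 19.8, 16.2, 1.53 and 1.31 CPM in SS and 0 in all 3 MI libraries, which makes it at least 100-fold lower in MI against the floor over the group (adjusted p = 0.0294). S100a8 read 14.3, 7.99, 0.109 and 0.187 CPM in SS and 0, 0 and 0.0963 CPM in MI, a single read, for a ratio of 177 with a 95% counting interval of 31.4 to 7011 (adjusted p = 0.0413). SS replicates 3 and 4 were near the floor for S100a8. Both calls rest on few libraries: without SS replicate 1 or 2, or any one of the 3 MI libraries, S100a8 had adjusted p of 0.0757 to 0.159 and S100a9 0.0561 to 0.108, and without SS replicates 1 and 2 together the values were 0.8 and 0.292. The fitted S100a8 fold was 63.1 without SS replicate 1 and 3.73 without SS replicates 1 and 2, against 129 with all libraries. Without the filter on low counts neither passed (0.0688 and 0.0511), nor did either with only SS replicates 1 and 4 (0.0528 and 0.0825), while DESeq2 called both.

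In CD11c-negative cells S100a9 read 2.48, 4.31, 7.90 and 34.8 CPM in SS and 0, 0, 0 and 2.09 CPM in MI, without overlap, and did not pass (log2 -4.33 ± 1.44, adjusted p = 0.0756); without MI replicate 4, the only MI library with reads, it passed (adjusted p = 0.033). Without SS replicate 4, its highest library, the log2 difference was -3.01 (adjusted p = 0.232). S100a8 there read 1.62, 2.16, 3.18 and 12.9 CPM in SS and 0.184, 0.612, 0 and 2.72 CPM in MI (log2 -2.41, adjusted p = 0.324; -1.32 and 0.662 without SS replicate 4). In cDC1 neither gene had a read in MI. SS cDC1 held 29 S100a8 and 43 S100a9 reads, with 25 of the S100a9 reads in replicate 2 and 0 in replicate 1. Over summed reads the 2 genes were thus at least 8.22-fold and 12.2-fold lower in MI. By library the S100a9 groups overlapped at 0, and neither gene passed the edgeR test (adjusted p = 0.208 and 0.229). No comparison between sorts passed for either gene.

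Neutrophil markers were present at low levels beside these values. The 19 genes of the neutrophil list summed to 194, 221, 469 and 352 CPM in SS CD11c-positive replicates 1 to 4 and to 169 to 231 CPM in MI, most of it from Csf3r, Mmp9 and Trem1, which monocytes also make. Of the list's genes, Elane and Stfa1 were at 0 in both groups. Camp, Ngp, Lcn2 and Stfa2l1 were at 0 in MI CD11c-positive cells and averaged 0.254, 0.837, 2.36 and 0.315 CPM in SS. Ltf, Mmp8 and Mpo, also on the list, had reads in MI CD11c-positive cells. In SS cDC2 the list summed to 141 to 275 CPM and in MI cDC2 to 154 to 270 CPM, with overlap; in CD11c-negative cells to 122 to 250 CPM in SS and 192 to 242 CPM in MI; and in cDC1 to 9.46 to 23.5 CPM in SS and 4.83 to 11.7 CPM in MI. Gene by gene, 3 of 13 tested were called lower in CD11c-positive cells, beside 3.32% of all genes. They were Mmp9 (4.58-fold), the chemokine receptor Cxcr2 (5.27-fold) and the histamine-forming enzyme Hdc (14.4-fold), at adjusted p = 0.0321, 0.0297 and 0.0482. In cDC2, Mmp9 fell (16.3-fold, adjusted p = 7.56e-04) and the decoy receptor Il1r2 rose (6.27-fold, adjusted p = 0.00338), and in CD11c-negative cells Cxcr2 fell (4.98-fold, adjusted p = 0.0288). The list's median fitted log2 difference was -2.19 in CD11c-positive cells, -1.60 in cDC2, -1.53 in cDC1 and -0.28 in CD11c-negative cells, in the direction of S100a8 and S100a9; many of its genes had few reads, and fitted values of such genes depend on the prior count. Over the 31 libraries S100a9 was most like S100a8 (Pearson r of log2 CPM 0.896), Retnlg, a neutrophil resistin-like protein (0.802), and the immunoglobulin joining chain Jchain (0.8), and S100a8 was next most like the neutrophil chemokine receptor Cxcr2 (0.791) and Chil1 (0.772). The part of neutrophils in the S100a8 and S100a9 values was not tested.

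Of the other S100 genes, 7 of 12 found could be tested. S100a4 and S100a6, calcium-binding proteins of motile cells, rose in CD11c-negative cells after MI (1.90-fold, adjusted p = 0.00567, and 1.82-fold, adjusted p = 0.00621), while S100a10, a partner of annexin A2, fell in cDC2 (1.90-fold, adjusted p = 0.0045) and cDC1 (2.45-fold, adjusted p = 5.01e-05). In CD11c-positive cells none of the 7 was called. S100a4 averaged 14.9 ± 3.17 CPM in SS CD11c-negative cells, 78.0 ± 22.5 in SS CD11c-positive cells and 196 ± 41.5 in SS cDC2.

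Cd14 encodes the co-receptor that hands bacterial lipopolysaccharide to TLR4. It lies on chromosome 18 at 36725067 to 36726798, minus strand, in 2 exons. It read 2585, 2830, 2361 and 2142 CPM in SS CD11c-negative cells and 1906, 1933, 2146 and 2552 CPM in MI (log2 -0.22 ± 0.23, adjusted p = 0.684), and 2437, 2342, 2177 and 1585 CPM in SS CD11c-positive cells and 1457, 1696, 1839 and 2298 CPM in MI (-0.23 ± 0.23, adjusted p = 0.688). Both pairs of groups overlapped.

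In cDC2, Cd14 read 1280, 2764, 2408 and 1604 CPM in SS and 1029, 974 and 1187 CPM in MI, without overlap, and fell 1.89-fold (log2 -0.92 ± 0.26, adjusted p = 0.0176). The call ended without SS replicate 2 (adjusted p = 0.087) or 3 (0.0512), without MI replicate 1 (0.0764) or 2 (0.0848), and with only SS replicates 1 and 4 (0.23). In cDC1 it read 170, 412, 210 and 186 CPM in SS and 126, 121, 145 and 192 CPM in MI, with overlap, and fell 1.67-fold (adjusted p = 0.0457); without SS replicate 2, its highest library, the log2 difference was -0.37 (adjusted p = 0.335), and without MI replicate 1, 2 or 3 adjusted p was 0.101 to 0.14, and the call also ended without the filter (0.0749), in a fit of the cDC1 libraries alone (0.112) and with only SS replicates 1 and 4 (0.43). No SS difference between sorts passed for Cd14, and in MI it was 2.01-fold lower in cDC2 than in CD11c-negative cells (adjusted p = 0.00393). Against MI CD11c-positive cells the difference was log2 -0.78 and did not pass (adjusted p = 0.0507), but passed in DESeq2 (0.0152), with upper-quartile scaling (0.0425), in a fit of those 2 groups only (6.27e-04) and without MI CD11c-positive replicate 1 (0.0374).

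Over the 31 libraries Cd14 was most like Sdc4, the heparan sulfate carrier syndecan 4 (Pearson r of log2 CPM 0.982), the chemokine Cxcl1 (0.978) and the protease Adam15 (0.974). Of 15 other genes tested from the list of CD14 and TLR4 pathway genes, 2 rose in CD11c-negative cells (the integrin genes Itgam, 1.90-fold, and Itgb2, 1.51-fold; adjusted p = 3.31e-04 and 0.00621). In cDC2, 2 fell (Ly96, the TLR4 partner MD-2, 1.93-fold, adjusted p = 0.0458, and the kinase Irak2, 1.44-fold, adjusted p = 0.00281), and in CD11c-positive cells Irak2 alone fell (1.43-fold, adjusted p = 0.00355). In cDC1, 2 rose (the adaptor Myd88, 1.82-fold, adjusted p = 1.02e-04, and Itgb2, 1.37-fold, adjusted p = 0.0311) and 2 fell, Itgam the most (1.75-fold, adjusted p = 0.00316). Of all genes, 4.01% were called higher in CD11c-negative cells, 6.63% lower in cDC2, 3.32% lower in CD11c-positive cells, and 2.16% higher and 6.73% lower in cDC1, so these counts of 1 or 2 of 15 are no result about the list. Its median log2 difference lay between -0.31 and 0.17 in the 4 sorts, beside -0.03 over all genes.

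Set side by side, the sorts differed in how many members separated them. In SS, CD11c-positive against CD11c-negative cells, 4 of 9 were higher (Ly6c1, Ly6c2, Plac8 and Lyz1; 8.56% of all genes were called higher) and F13a1 was lower (4.34% called lower). In SS cDC2 against CD11c-positive cells, Ly6c1 and Ly6c2 were lower (2 of 9; 8.05% of all genes) and Lyz1 higher (7.35%). In SS cDC2 against CD11c-negative cells, Plac8 and Lyz1 were higher (2 of 9; 19.1%) and F13a1 lower (16.2%), a share of members near that of all genes. The count for the monocyte-derived sorts was 1 of 9 without SS CD11c-positive replicates 3 and 4, and was 1 and 3 of 9 with only SS replicates 1 and 4 or 2 and 3; the second was 1 and 0 of 9 there and 0 in a fit of those 2 groups only.

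In MI the members separated cDC2 from both monocyte-derived sorts and barely separated those from each other. F13a1 alone was lower in CD11c-positive than in CD11c-negative cells (1 of 9; 4.17% of all genes called lower). In cDC2, Ly6c1, Ly6c2, F13a1, Lyz1 and Lyz2 were below CD11c-positive cells (5 of 9; 5.66%), and these and Cd14 below CD11c-negative cells (6 of 9; 12.6%). Against CD11c-negative cells, F13a1 was 29.4-fold lower (adjusted p = 6.64e-12). Ly6c1 and Ly6c2 lay 10.6-fold and 54.1-fold below CD11c-negative cells (adjusted p = 0.0133 and 4.07e-04). These 2 move with single libraries: 33.2-fold and 126-fold without MI cDC2 replicate 3, 28.0-fold for Ly6c2 without MI CD11c-negative replicate 2, and adjusted p of 0.0609 and 0.0737 for Ly6c1 without MI cDC2 replicate 1 or 2. The summed pair was 16.4-fold lower.

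The tests of a difference between MI effects, which share the same SS and MI libraries with the comparisons above, called fewer members. Between CD11c-positive and CD11c-negative cells edgeR called 0 of 9 (0.291% of all genes were called in either direction), with 4 members at an unadjusted p under 0.05 and 2 called by DESeq2, F13a1 and Plac8. Between cDC2 and CD11c-positive cells the effect was lower in cDC2 for Lyz1 and Lyz2 (2 of 9; 0.491% of all genes). Between cDC2 and CD11c-negative cells it was lower in cDC2 for Ly6c2, F13a1, Plac8, Lyz1 and Lyz2 (5 of 9; 3.05%). The Ly6c2 difference was log2 -6.02 ± 1.38 (adjusted p = 0.00786), ended without SS cDC2 replicates 1 and 2 (adjusted p = 0.165), and was 33.4-fold without MI CD11c-negative replicate 2 and 152-fold without MI cDC2 replicate 3. With the copies summed the Ly6c pair differed 18.8-fold and the lysozyme pair 6.03-fold. Without SS cDC2 replicates 1 and 2 the count was 3 of 9, namely F13a1, Lyz1 and Lyz2.

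Other classical monocyte genes did not all move with the 9 members. Of 25 tested, 11 rose and 0 fell in CD11c-negative cells (4.01% and 3.37% of all genes were called higher and lower there, 523 and 440 genes, or 396 and 604 with upper-quartile scaling), among them Fn1 (14.4-fold), Ccr2, the receptor for monocyte recruitment (5.06-fold, adjusted p = 2e-13; 420 ± 63.4 to 2125 ± 248 CPM), and the chitinase-like Chil3 (4.19-fold, adjusted p = 0.048). In CD11c-positive cells 2 rose and 0 fell (1.52% and 3.32% of all genes), Ccr2 (1.83-fold) and the basigin relative Emb (1.74-fold, adjusted p = 0.00625). In cDC2, 1 rose (4.41% of all genes) and 6 fell (6.63%), with Thbs1 (8.58-fold), Chil3 (8.02-fold, adjusted p = 0.016) and the glutathione transferase Mgst1 (4.92-fold, adjusted p = 0.0169) the largest. In cDC1, 3 rose and 3 fell (2.16% and 6.73% of all genes). The list's median log2 difference was 0.93 in CD11c-negative cells, 0.15 in CD11c-positive cells, -0.71 in cDC2 and -0.07 in cDC1. For the difference of MI effects between cDC2 and CD11c-negative cells, 15 of 25 were lower in cDC2 and 0 higher (3.05% and 1.44% of all genes).

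Between MI and SS, genes of nonclassical monocytes were called in 1 direction only. Of 15 tested, 8 fell in cDC2, 6 in CD11c-positive cells, 2 in CD11c-negative cells and 2 in cDC1, and none rose, beside 6.63%, 3.32%, 3.37% and 6.73% of all genes called lower. In cDC2 the largest were Ace (18.3-fold, adjusted p = 7.9e-04; 463 ± 353 to 25.3 ± 11.3 CPM), the receptor Treml4 (15.9-fold, adjusted p = 1.13e-04; 192 ± 130 to 12.1 ± 7.57 CPM) and the integrin Itgal (9.29-fold, adjusted p = 8.36e-08; 525 ± 245 to 56.4 ± 4.2 CPM). In CD11c-positive cells Pglyrp1 (24.0-fold, adjusted p = 0.00934), Ace (10.3-fold, adjusted p = 0.0039) and Itgal (4.65-fold, adjusted p = 8.73e-06) led. How far these counts and folds rest on the SS libraries that stand apart was not tested. In SS cDC2, 12 of the 15 were above CD11c-negative cells and 2 below (19.1% and 16.2% of all genes); the share below is near that of all genes. The list's median log2 difference between MI and SS was -1.58 in cDC2, -0.77 in CD11c-positive cells, -0.36 in CD11c-negative cells and -0.45 in cDC1.

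**Figure D4:**
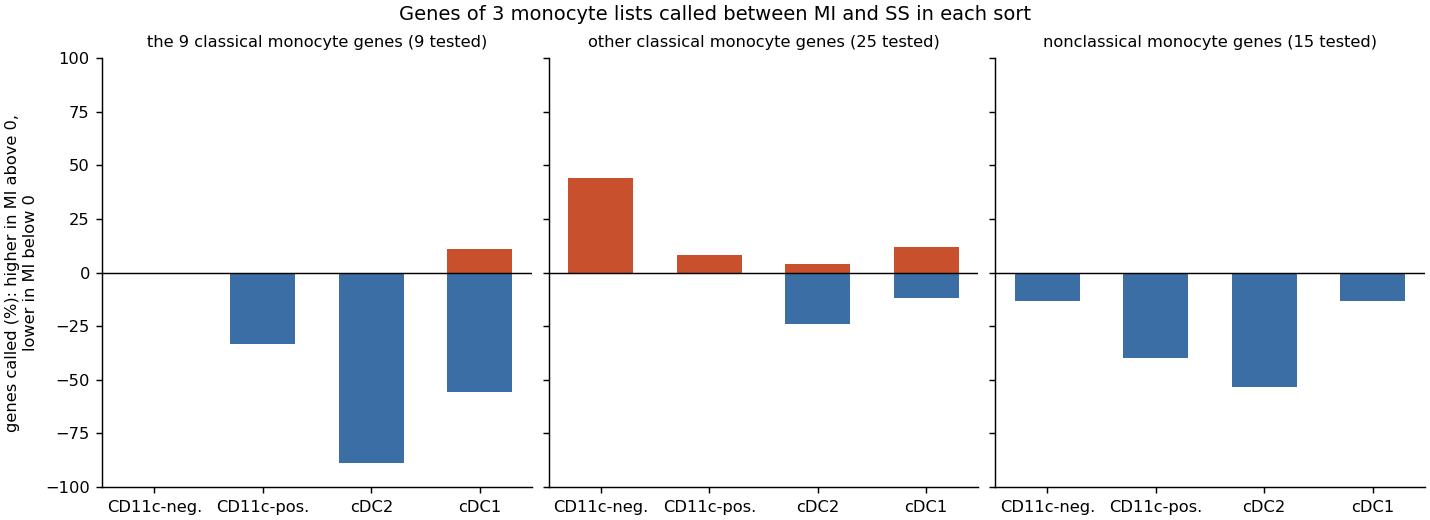
Percent of tested genes called between MI and SS in each sort (above 0, higher in MI; below 0, lower in MI) for the 9 members, the 25 other classical monocyte genes and the 15 nonclassical monocyte genes. The other classical genes have 11 calls upward in CD11c-negative cells, where the 9 members have none, and the nonclassical genes have calls downward only.

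Of the markers of other cells that a gate could let through, T and NK cell and cardiomyocyte genes had lower sums in MI libraries of every sort, and others in some sorts. The fibroblast, B cell and cDC2 lists each had higher sums in 1 sort. The 14 T and NK cell genes summed to 73.7 to 149 CPM in SS cDC2 and 18.3 to 27.9 CPM in MI cDC2, to 22.8 to 155 CPM in SS and 9.91 to 18.3 CPM in MI CD11c-positive cells, to 9.53 to 27.5 CPM in SS and 0.505 to 3.06 CPM in MI CD11c-negative cells, and to 40.8 to 93.2 CPM in SS and 18.4 to 22.4 CPM in MI cDC1. Among them Cd3g was at 0 in all 4 MI groups. Endothelial genes (16) summed to 103 to 404 CPM in SS and 63.0 to 97.7 CPM in MI CD11c-positive cells, and to 53.2 to 111 CPM in SS and 38.2 to 58.5 CPM in MI CD11c-negative cells, which overlap. Mural genes (11), which mark pericytes and smooth muscle, summed to 14.1 to 58.6 CPM in SS cDC2 and 6.84 to 10.8 CPM in MI cDC2, to 92.5 to 329 CPM in SS and 0.819 to 2.96 CPM in MI cDC1, and to 64.1 to 360 CPM in SS and 14.1 to 17.5 CPM in MI CD11c-positive cells, where 7 of 10 tested were called lower; in CD11c-negative cells the sums overlapped. The 8 cardiomyocyte genes did not overlap between states in any sort, for example at 59.6 to 174 CPM in SS and 11.8 to 29.9 CPM in MI CD11c-positive cells. Resident macrophage genes (16), whose cells also make Lyz2, Cd14 and F13a1, summed to 1549 to 2733 CPM in SS cDC2 and 689 to 1202 CPM in MI cDC2, to 240 to 326 CPM in SS and 68.9 to 94.8 CPM in MI cDC1, and to 18836 to 24331 CPM in SS and 14218 to 17817 CPM in MI CD11c-negative cells. In CD11c-positive cells their sums overlapped (6313 to 14341 CPM in SS, 5482 to 6819 CPM in MI). Called lower were 11 of the 16 in cDC2, where 2 were called higher, and 8 in cDC1, 8 in CD11c-positive and 7 in CD11c-negative cells. Of all genes, 6.63%, 6.73%, 3.32% and 3.37% were called lower in these sorts, and 4.41% higher in cDC2. The 3.32% in CD11c-positive cells also stands beside the 7 of 10 mural genes.

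The higher sums of the fibroblast and B cell lists each rested on 1 gene that is not private to the named cells. Fibroblast genes (10) summed to 771 to 1064 CPM in SS cDC2 and 1146 to 1453 CPM in MI cDC2, of which the actin-severing protein Gsn made up 929 and 1323 CPM on average, while the mean of each of the other 9 was lower in MI. B cell genes (8) summed to 79.6 to 128 CPM in SS cDC1 and 157 to 163 CPM in MI cDC1, of which Fcrla made up 97.2 and 156 CPM. Their other non-overlapping sums were lower in MI: fibroblast genes in cDC1, and B cell genes in cDC2 and CD11c-positive cells. The cDC2 genes (11) summed to 1153 to 1359 CPM in SS cDC1 and 1441 to 1536 CPM in MI cDC1. Gene by gene, 4 of the 11 were called lower there and 0 higher (6.73% and 2.16% of all genes). Plasmacytoid dendritic cell genes (9) overlapped in every sort (94.5 to 143 CPM in SS cDC2, 133 to 145 CPM in MI). Within SS cDC2 they summed to 143 and 135 CPM in replicates 1 and 2, and to 96.2 and 94.5 CPM in replicates 3 and 4. SS CD11c-positive replicate 3 stood apart at 405 CPM, with the other SS libraries of that sort at 85.5 to 141 CPM and MI at 102 to 131 CPM. The part of these cells in the members' changes was not tested.

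**Figure D5:**
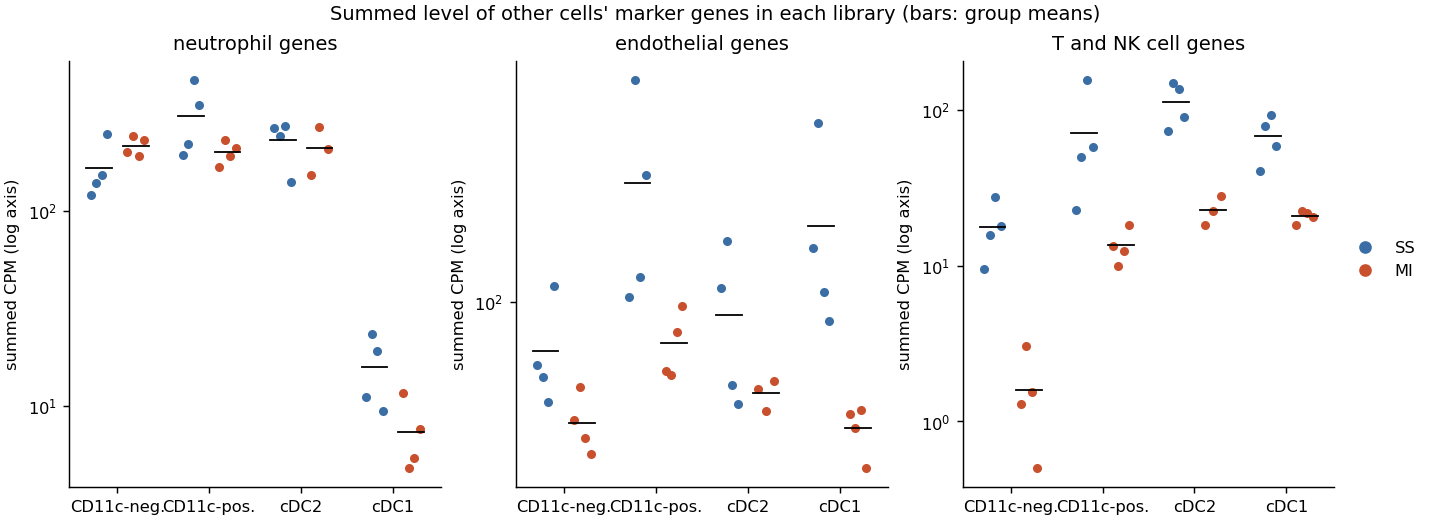
Summed CPM (log axes) of the neutrophil, endothelial and T and NK cell marker lists in each of the 31 libraries by sort, SS in blue and MI in orange, with group means as bars. T and NK cell genes do not overlap between SS and MI in any sort, while neutrophil genes overlap in all 4 sorts.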

How the data were processed

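RNA of sorted mouse heart cells was sequenced in 31 libraries from 4 ng of RNA as single reads of 75 bases, per the labels' protocols. What the authors deposited is a raw read count for each gene symbol in each library. The submitters' processing notes list TopHat2 2.1.0 and SAMtools 0.1.18 beside Trimmomatic 0.35 and FastQC 0.11.4, with mm10 as the build. No source used here names the counting tool, its annotation or its strand setting. Rows that name no gene were left out: reads in no feature were 6.42% to 16.9% and ambiguous reads 0.857% to 1.21%.

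Counts were fitted in edgeR 4.0.16 (R 4.3.3, limma 3.58.1) with a quasi-likelihood model of 8 groups over all 31 libraries, TMM factors and filterByExpr (minimum count 10), and p-values were adjusted by Benjamini-Hochberg over 13039 genes in each comparison. A gene is called at an adjusted p under 0.05; a standard error is the log2 change divided by the square root of F and is approximate. For genes at or near 0 reads, ratios of summed counts have exact 95% intervals for counting error only, and bounds use 3 reads over the group as the floor. Correlations use log2 CPM with a prior count of 2. The members and gene lists were chosen with earlier results of these data known. The genes named beside the members are, for each list and comparison, those called with the largest changes, and for each member the 3 of highest Pearson r. Marker genes named for being at 0 or for leading a sum were picked after their values were seen. Replicates of a group differed beyond sampling noise (the lowest chi-square was 10.8 times its degrees of freedom), so no library was counted as a copy of another. Whether replicate numbers pair libraries was checked by correlating deviations from group means: for SS CD11c-negative libraries, all 4 same-numbered pairs were over 0.1 with SS CD11c-positive (0.119 to 0.203) and with SS cDC2 (0.109 to 0.16), so the numbers were taken as pairing those 2 comparisons, from the data, as the labels give no shared animal. Alternatives were DESeq2 1.42.0, 2 other scalings, no filter, a replicate block, only the compared groups, summed gene copies, each library left out and subsets of SS libraries. On simulated counts for MI against SS in cDC2 over 13039 genes, 44.4% of 2-fold and 84.4% of 4-fold changes were recovered, and 5 unchanged genes were called. The counts were drawn from each gene's mean over all groups with a spread set by that mean, and the changed genes were picked at random. A gene's own spread and the split of the SS cDC2 libraries were absent, so these shares are not the recovery of the members. Sequences come from RefSeq (GRCm38.p6) and the GENCODE M21 annotation of GRCm38.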

Additional observations from a re-analysis of the deposited data

Results flagged for a closer look

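Of 61 sets of 4 libraries, 8 had 1 library far from the other 3. The cut used would flag about 1 in 20 sets of normally distributed values. Sets near 0 reads are not so distributed, so no excess is read from the 8. SS CD11c-negative replicate 4 was high in Ly6c1 (22.8 CPM, the others 9.73 to 11.1), S100a8 (12.9 CPM, the others 1.62 to 3.18) and S100a9 (34.8 CPM, the others 2.48 to 7.90). MI CD11c-positive replicate 2 was high in S100a8 (2.48 CPM, the others 0.0971 to 0.500) and was the only library of its group with S100a9 reads (0.396 CPM), as MI CD11c-negative replicate 4 was in its own (2.09 CPM). SS CD11c-positive replicate 3 stood out in Lyz1 (6078 CPM, the others 2309 to 2801) and SS cDC1 replicate 2 in Cd14 (412 CPM, the others 170 to 210).

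The MI effect differed between sorts, by an interaction test in edgeR's quasi-likelihood model, for 7 of 27 pairs of member and comparison. It was lower in cDC2 than in CD11c-positive cells for Lyz1 (log2 difference -2.60) and Lyz2 (-1.97). It was lower in cDC2 than in CD11c-negative cells for Ly6c2 (-6.02), F13a1 (-2.51), Plac8 (-3.48), Lyz1 (-3.78) and Lyz2 (-2.32). For Plac8 the 2 sorts moved in opposite directions, lower in MI in cDC2 and higher in MI in CD11c-negative cells, though neither change passed on its own.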

How the results depend on the processing

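Of 2187 values of single members under an alternative, 2057 kept their direction and their side of the threshold or stayed uncalled, 86 lost their call and 44 gained one; 72 of the uncalled changed sign, and no called value did. Counts of members called that moved by over 1.5 times were as follows. For MI against SS in CD11c-negative cells, 0 became 1 (F13a1) with upper-quartile scaling, the replicate block, only the compared groups, or DESeq2. In CD11c-positive cells, 3 became 5 with only the compared groups or only SS replicates 2 and 3, and 7 with DESeq2. In cDC2, 8 became 5 with only SS replicates 1 and 4, and 4 without SS cDC2 replicates 1 and 2. For CD11c-positive against CD11c-negative cells in SS, 5 became 1 with SS replicates 1 and 4, 3 with SS replicates 2 and 3, and 1 without SS CD11c-positive replicates 3 and 4. For cDC2 against CD11c-positive cells in SS, 3 became 0 with only the compared groups, 1 with SS replicates 1 and 4, and 0 with SS replicates 2 and 3. For the differences of MI effects, DESeq2 gave 2 in place of 0 (CD11c-positive against CD11c-negative) and 4 in place of 2 (cDC2 against CD11c-positive), and leaving out SS cDC2 replicates 1 and 2 gave 3 in place of 5 (cDC2 against CD11c-negative). The cause was not tested, other than that subsets hold fewer samples. Leaving out 1 library at a time gave 0 to 1 calls in CD11c-negative cells, 3 to 5 in CD11c-positive cells, 4 to 9 in cDC2 and 3 to 6 in cDC1 for MI against SS, and 3 to 5 for CD11c-positive against CD11c-negative cells in SS. Leaving out pairs of SS libraries was chosen after seeing the data.

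Replicate numbers met the pairing rule (every same-numbered pair over 0.1) in 2 SS comparisons only, given under the processing; there the replicate block changed no member's call. In the other comparisons it was not met: over all same-numbered libraries of 1 state the correlations were -0.06 to 0.20 (median 0.05, 15 of 45 over 0.1), against a median of -0.02 with 3 of 135 over 0.1 for different numbers, and 22 of 31 libraries correlated best with their own number, a hint from the data and not the design. With the replicate block across states 1 member was called in CD11c-negative cells, 3 in CD11c-positive cells, 8 in cDC2 (Plac8 gained, S100a8 lost) and 5 in cDC1 (Cd14 lost, adjusted p = 0.0601). With the block within states, Cd14 was gained for cDC2 against CD11c-positive cells in MI (adjusted p = 0.0104) and F13a1 for the difference of MI effects between these sorts (0.02). Depth limits S100a8 and S100a9, which had between 0 and 43 reads in any MI library.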
